A study of Mus musculus with 45 samples.

Results

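Islets of Langerhans of 2 inbred mouse strains on a high-fat, high-sugar diet were compared across all measured genes. NZO/HlLtJ (NZO) is a strain prone to obesity in which many males develop diabetes, and CAST/EiJ (CAST) is a wild-derived strain that stays lean. The comparison takes every library whose label gives the diet with 44% fat and either strain: 7 NZO libraries (4 from females, 3 from males) and 8 CAST libraries (4 from females, 4 from males), 15 of the 45 libraries of the study. All these mice are labelled as wild type with no treatment other than the diet. Added fiber is named in the labels of this diet and of the control diet alike. The diet was given from the age of 6 weeks, and islets were taken at 15 weeks. The same strains on the control diet with 10% fat (14 libraries) and C57BL/6J on the high-fat diet (8 libraries) serve only to place the values. The labels do not say which animal, or how many, a library represents, so every p-value here refers to library-to-library spread, which may be technical. Polyadenylated RNA was read as pairs of 150 bp. In whole islets, fewer cells of a type and less RNA per cell cannot be told apart.

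Beta cells take up glucose through a high-capacity transporter, and its metabolism closes potassium channels, lets calcium in and releases insulin from granules. A set of transcription factors keeps the genes of this machinery on and keeps genes of other cell types low. Under sustained overnutrition beta cells enlarge and divide, make more hormone in the endoplasmic reticulum and, in susceptible animals, lose part of their mature program, while immune and stromal cells of the islet also respond.

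The identity of some libraries bears on every result. Total counts ran from 60703339 to 92642563 per library. Genes expressed in NZO and nearly silent in CAST were picked on the control-diet libraries (37 genes), and their level in each CAST high-fat library was expressed as a percentage of the NZO level. The median was 7.03% in CAST female 1, 3.87% in female 2 and 3.02% in female 4, against 0.425% in female 3 and 0.249% to 0.626% in the 4 males. Only 4 of the 37 were nearly silent in C57BL/6J as well, so this set does not tell NZO transcripts from those of C57BL/6J. The 4 C57BL/6J genes nearly silent in both CAST and NZO had a median of 8.96% of the C57BL/6J level in CAST female 1, 2.35% in female 2 and 4.98% in female 4, against 0.44% to 1.6% in the other 5 CAST libraries. Those 4 NZO genes had 1.65%, 3.26% and 0.601% in females 1, 2 and 4, against 0.45% to 1.28%. In CAST females 1 and 4 the set of C57BL/6J genes thus stood above the set of NZO genes, and in female 2 both sets stood above those other 5 libraries. Each of these sets holds only 4 genes. The reverse set, 31 CAST genes nearly silent in NZO, stood at 2.27% in NZO male 3 and at 0.598% to 1.13% in the other NZO libraries, and NZO male 3, labelled male, had 15.3 CPM (the depth-scaled count that edgeR gives) of Xist, a transcript of females. Results were therefore also computed without these 4 libraries, a choice made after seeing the data, which leaves 1 CAST female and 2 NZO males. Beyond those values the part of these transcripts in the results was not tested.

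**Figure D1:**
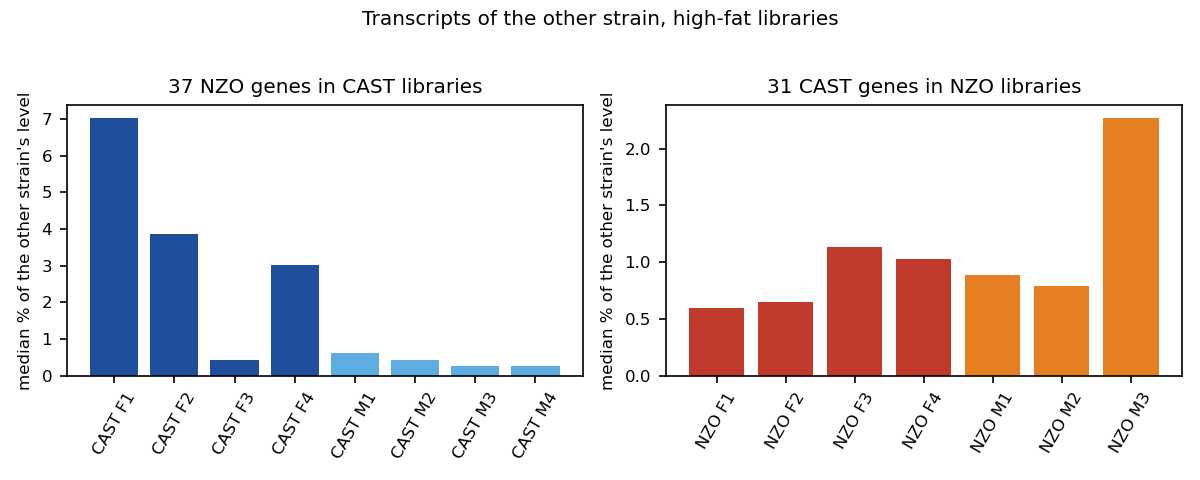
Level of genes of the other strain in each high-fat library, as the median percentage of the level in that other strain (bars; left, 37 NZO genes in the 8 CAST libraries; right, 31 CAST genes in the 7 NZO libraries). Most of the 37 genes are not silent in C57BL/6J, so the left bars do not tell NZO from C57BL/6J transcripts. CAST females 1, 2 and 4 stand at 3.02% to 7.03% and NZO male 3 at 2.27%.

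The strains differed at most genes. Of 19088 genes tested with the quasi-likelihood test of edgeR, 13617 (71.3%) passed an adjusted p of 0.05, 6999 (36.7%) higher and 6618 (34.7%) lower in NZO. Differences are given as log2 of NZO over CAST ± SE, averaged over females and males, and a gene that passed is called. At least 2-fold differences were called at 6073 genes (31.8%; 19.0% higher, 12.8% lower), and at 6343 genes (33.2%; 15.7% higher, 17.5% lower) the 7 NZO libraries did not overlap the 8 CAST libraries. The median difference over all tested genes was 0.005 and the median size was 0.615. Without the 4 libraries, 9941 of 19975 genes (49.8%) were called, 25.8% higher and 23.9% lower, part of the loss being the smaller number of samples, and 99.9% of the 13617 genes kept their sign. Since 71.3% of all genes were called, the gene groups below are described by direction and size, and a share of called members near that value says nothing about a group.

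The insulin genes did not pass the test, while most genes that define the mature beta cell were lower in NZO. Of 32 beta cell genes tested, 21 were called lower and 2 higher, with a median difference of -0.91, and the strains did not overlap at 0 genes higher and 16 lower in NZO. Leaving out the 4 libraries gave 1 higher and 20 lower, with a median of -0.87. Ins2, the more abundant of the mouse insulin genes, ran from 28390 to 98360 CPM in the NZO libraries, with a median of 69410, and from 55380 to 80700, with a median of 67940, in the CAST libraries. Ins2 overlapped between the strains and did not pass the test (-0.10 ± 0.24, edgeR adjusted p = 0.729). Ins1, the other insulin gene, had a median of 40280 CPM in NZO (lowest 13360, highest 59570) and of 42110 CPM in CAST (lowest 37270, highest 49920). Ins1 overlapped between the strains and did not pass the test (-0.25 ± 0.25, edgeR adjusted p = 0.384). Insulin was thus abundant in all 15 libraries, which are labelled as islets, and the lowest values of both genes were those of NZO male 3. Iapp, islet amyloid polypeptide, secreted with insulin, was measured at 12080 to 27290 CPM in NZO islets (median 20640) against 11540 to 15090 CPM in CAST islets (median 13130). Iapp overlapped between the strains, with a fitted level 1.52-fold higher in NZO (0.61 ± 0.20, edgeR adjusted p = 0.0131). Without the 4 libraries Iapp no longer passed (0.68, edgeR adjusted p = 0.0781).

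Several genes of the glucose and incretin response and of beta cell maturity were lower, while Glp1r and G6pc2 did not pass the test. Slc2a2, the glucose transporter GLUT2, ran from 97.3 to 531 CPM in the NZO libraries, with a median of 269, and from 1017 to 1440, with a median of 1224, in the CAST libraries. Slc2a2 was lower in every NZO library than in any CAST library, 5.01-fold in the fit (-2.33 ± 0.20, edgeR adjusted p = 3.24e-07). Gipr, the receptor of the incretin GIP, had a median of 26.4 CPM in NZO (lowest 6.87, highest 41.7) and of 93.2 CPM in CAST (lowest 75, highest 113). Gipr separated the strains in all libraries and was 5.34-fold lower in NZO (-2.42 ± 0.13, edgeR adjusted p = 7.7e-09). Both genes sit at the entry of the signals that drive insulin release. Trpm5, a calcium-activated cation channel of beta cells, was measured at 7.61 to 71.1 CPM in NZO islets (median 45) against 215 to 336 CPM in CAST islets (median 232). Trpm5 in NZO was 9.53-fold below CAST, without overlap (-3.25 ± 0.18, edgeR adjusted p = 1.22e-08). Slc30a8, the zinc transporter of insulin granules, ran from 98.3 to 486 CPM in the NZO libraries, with a median of 315, and from 645 to 869, with a median of 764, in the CAST libraries. Slc30a8 did not overlap between the strains and was 3.2-fold lower in NZO (-1.68 ± 0.14, edgeR adjusted p = 3.98e-07). Ucn3, urocortin 3, a marker of mature beta cells, had a median of 163 CPM in NZO (lowest 26.7, highest 250) and of 477 CPM in CAST (lowest 368, highest 600). Ucn3 was lower in every NZO library than in any CAST library, 4.14-fold in the fit (-2.05 ± 0.21, edgeR adjusted p = 2.25e-06). These 5 genes were lower in all 7 NZO libraries. Nnat, neuronatin, an imprinted gene of beta cells, was measured at 3.56 to 8.41 CPM in NZO islets (median 5.05) against 89.6 to 277 CPM in CAST islets (median 131). Nnat separated the strains in all libraries and was 27.1-fold lower in NZO (-4.76 ± 0.27, edgeR adjusted p = 1.3e-08). Glp1r, the receptor of the incretin GLP-1, ran from 24.1 to 183 CPM in the NZO libraries, with a median of 126, and from 82.3 to 127, with a median of 99.6, in the CAST libraries. Glp1r overlapped between the strains and did not pass the test (-0.33 ± 0.17, edgeR adjusted p = 0.0937). G6pc2, the islet glucose-6-phosphatase, had a median of 2280 CPM in NZO (lowest 706, highest 3135) and of 1874 CPM in CAST (lowest 1299, highest 2251). G6pc2 overlapped between the strains and did not pass the test (0.01 ± 0.18, edgeR adjusted p = 0.966). Without NZO male 2, Glp1r was called lower at -0.50. With any 1 library left out, G6pc2 ran from -0.10 to 0.20. For both genes the value is an average over sexes that differed. The fitted difference of each was positive in females and negative in males. The strain by sex interaction, the male minus the female strain difference, was called for Glp1r (-1.45) and G6pc2 (-1.43). With any 1 library left out it ran from -1.68 to -1.18 for Glp1r and from -1.77 to -1.18 for G6pc2.

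Transcription factors of the beta cell followed the same direction with smaller differences. Nkx6-1, a factor that holds beta cell identity, was measured at 58 to 305 CPM in NZO islets (median 237) against 336 to 512 CPM in CAST islets (median 423). Nkx6-1 in NZO was 2.47-fold below CAST, without overlap (-1.31 ± 0.17, edgeR adjusted p = 1.54e-05). Pdx1, the factor that opens the pancreatic program and drives insulin transcription, ran from 47.7 to 224 CPM in the NZO libraries, with a median of 174, and from 153 to 343, with a median of 245, in the CAST libraries. Pdx1 overlapped between the strains, with a fitted level 1.88-fold lower in NZO (-0.91 ± 0.17, edgeR adjusted p = 0.000365). Mafa, a factor of late beta cell maturation, had a median of 66.9 CPM in NZO (lowest 19.1, highest 157) and of 79.8 CPM in CAST (lowest 57.7, highest 134). Mafa overlapped between the strains, with a fitted level 1.41-fold lower in NZO (-0.49 ± 0.15, edgeR adjusted p = 0.00875). The Mafa call was lost when a score of acinar genes was added to the fit (-0.44, edgeR adjusted p = 0.0657), and Mafa differed by -0.32 without NZO male 3. With the same score in the fit Slc2a2 differed by -2.31 and Gipr by -2.35. The differences of these factors also average over the sexes. Their strain by sex interaction, males minus females, was called for Mafa (-0.98) and Nkx6-1 (-1.43) and not for Pdx1. For Mafa the fitted strain difference thus lay in males, with next to none in females.

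**Figure D2:**
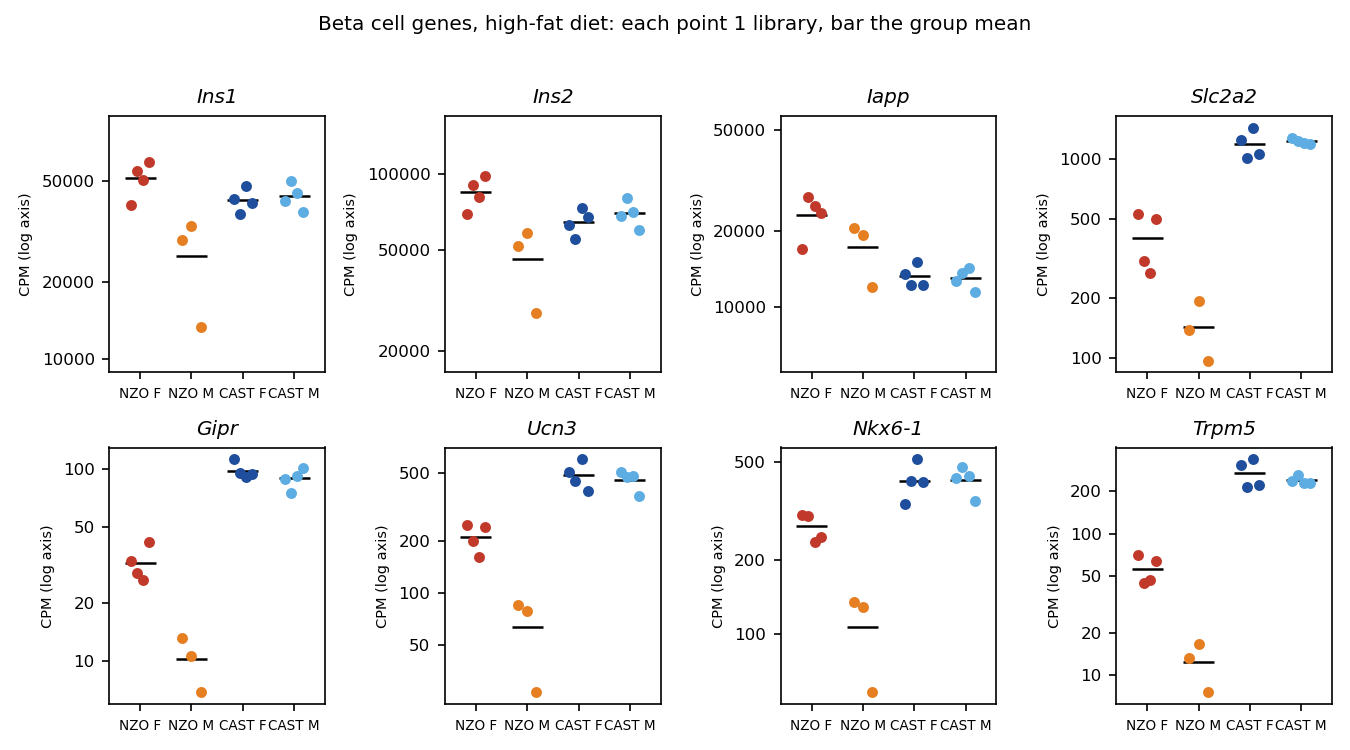
Level of 8 beta cell genes in CPM (log axis) in the 15 high-fat libraries, by strain and sex. Each point is 1 library and the bar is the group mean: Ins1, Ins2 and Iapp overlap between strains, while Slc2a2, Gipr, Ucn3, Nkx6-1 and Trpm5 lie lower in all 7 NZO libraries, and lowest in the 3 males.

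The NZO males carried the lowest levels of these genes. Slc2a2 averaged 402 ± 132 CPM in NZO females (SD, n = 4), 144 ± 48.9 in NZO males (n = 3), 1190 ± 195 in CAST females (n = 4) and 1227 ± 36 in CAST males (n = 4). Gipr averaged 32.4 ± 6.77 CPM in NZO females (SD, n = 4), 10.2 ± 3.15 in NZO males (n = 3), 98.2 ± 9.86 in CAST females (n = 4) and 89.6 ± 11.1 in CAST males (n = 4). For both genes the 3 NZO males lay below the 4 NZO females, and the CAST sexes overlapped. The sample identifiers fall in 3 runs of consecutive numbers, and the labels do not say what a run marks. NZO females 1 and 2 and NZO male 1 are in the first run. NZO males 2 and 3 are in the second, and NZO females 3 and 4 in the third. Sex within NZO and identifier run can thus not be fully told apart. The run was a term in the fit. Ins1 averaged 51260 ± 8241 CPM in NZO females (SD, n = 4), 25330 ± 10560 in NZO males (n = 3), 42160 ± 4426 in CAST females (n = 4) and 43640 ± 5134 in CAST males (n = 4). The strain by sex interaction of Slc2a2 was -1.58 (edgeR adjusted p = 0.0258) and that of Gipr -1.35 (adjusted p = 0.0116). Without those 4 libraries the Slc2a2 interaction was -1.23 (adjusted p = 0.51) and the Gipr interaction -1.15 (adjusted p = 0.246). Both calls were also lost without CAST male 3 alone, and that of Slc2a2 without CAST female 1, CAST female 4, CAST male 2, NZO female 1 or NZO male 1. 

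The other islet hormones moved each in its own way. Of 16 genes of alpha, delta, gamma and epsilon cells, 6 were higher and 9 lower in NZO, with a median of -0.43. Without these 4 libraries 3 were higher and 8 lower. Gcg, the alpha cell hormone glucagon, was measured at 9543 to 16330 CPM in NZO islets (median 11950) against 20490 to 30690 CPM in CAST islets (median 24820). Gcg did not overlap between the strains and was 1.95-fold lower in NZO (-0.96 ± 0.20, edgeR adjusted p = 0.00065). Sst, the delta cell hormone somatostatin, ran from 1111 to 1610 CPM in the NZO libraries, with a median of 1408, and from 1618 to 2174, with a median of 1853, in the CAST libraries. Sst was lower in every NZO library than in any CAST library, 1.38-fold in the fit (-0.46 ± 0.12, edgeR adjusted p = 0.00406). Ghrl, ghrelin, the hormone of epsilon cells, had a median of 0.142 CPM in NZO (lowest 0.011, highest 0.219) and of 11.3 CPM in CAST (lowest 2.65, highest 17.3). Ghrl separated the strains in all libraries and was 77.4-fold lower in NZO (-6.27 ± 0.32, edgeR adjusted p = 5.59e-09). Sst was not called without the 4 libraries (-0.42, adjusted p = 0.106). Ppy, pancreatic polypeptide, was measured at 836 to 2469 CPM in NZO islets (median 1233) against 160 to 2029 CPM in CAST islets (median 1231). Ppy overlapped between the strains, with a fitted level 1.88-fold higher in NZO (0.91 ± 0.34, edgeR adjusted p = 0.0285). The Ppy call was lost without the 4 libraries (0.68), without CAST female 1 alone (0.57), without CAST male 1 alone (0.81) and with the acinar score (0.79). Gc, the vitamin D binding protein, made by alpha cells, ran from 204 to 515 CPM in the NZO libraries, with a median of 337, and from 41.7 to 80.6, with a median of 66, in the CAST libraries. Gc was higher in every NZO library than in any CAST library, 5.2-fold in the fit (2.38 ± 0.21, edgeR adjusted p = 4.86e-07).

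Secretory genes split. Of 23 granule and exocytosis genes, 9 were higher and 9 lower (median 0.02). Chgb, chromogranin B, a granule matrix protein, had a median of 5776 CPM in NZO (lowest 2605, highest 7037) and of 980 CPM in CAST (lowest 755, highest 1358). Chgb did not overlap between the strains and was 5.21-fold higher in NZO (2.38 ± 0.22, edgeR adjusted p = 8.2e-07). Rims2, a scaffold of the release site, was measured at 15.9 to 33.3 CPM in NZO islets (median 27.3) against 37.4 to 48.7 CPM in CAST islets (median 40.7). Rims2 in NZO was 1.77-fold below CAST, without overlap (-0.83 ± 0.08, edgeR adjusted p = 9.76e-07). Ion channels of insulin secretion were more often lower, 14 of 22 against 5 higher (median -0.69). Kcnk16, a potassium channel of the endocrine pancreas, ran from 58 to 193 CPM in the NZO libraries, with a median of 133, and from 19.7 to 30.7, with a median of 25.6, in the CAST libraries. Kcnk16 lay above the CAST range in all NZO libraries, by 4.85-fold in the fit (2.28 ± 0.15, edgeR adjusted p = 4.73e-08). Ano1, a calcium-activated chloride channel, had a median of 38.5 CPM in NZO (lowest 24.9, highest 69.1) and of 7.92 CPM in CAST (lowest 6.83, highest 11.6). Ano1 in NZO was 5.13-fold above CAST, without overlap (2.36 ± 0.13, edgeR adjusted p = 1.05e-08). Both belong to the 5 channels of the list that were higher. Receptors for nutrients, hormones and transmitters had 14 of 22 lower and 5 higher (median -0.56). Adora1, the adenosine A1 receptor, was measured at 13.6 to 34.3 CPM in NZO islets (median 18.1) against 79 to 112 CPM in CAST islets (median 91.6). Adora1 did not overlap between the strains and was 4.89-fold lower in NZO (-2.29 ± 0.13, edgeR adjusted p = 9e-09). Gcgr, the glucagon receptor, ran from 14.3 to 24.5 CPM in the NZO libraries, with a median of 17.6, and from 33.9 to 53.8, with a median of 42, in the CAST libraries. Gcgr was lower in every NZO library than in any CAST library, 2.47-fold in the fit (-1.31 ± 0.10, edgeR adjusted p = 1.92e-07). In insulin and IGF signalling, 13 of 23 were lower and 7 higher (median -0.27). Irs1, an adaptor of the insulin receptor, had a median of 11.3 CPM in NZO (lowest 9.05, highest 14.4) and of 39.7 CPM in CAST (lowest 28.8, highest 46.1). Irs1 separated the strains in all libraries and was 3.28-fold lower in NZO (-1.71 ± 0.10, edgeR adjusted p = 1.85e-08). Igfbp5, a binding protein of insulin-like growth factors, was measured at 86.8 to 298 CPM in NZO islets (median 161) against 22.4 to 41.7 CPM in CAST islets (median 30.4). Igfbp5 was higher in every NZO library than in any CAST library, 5.53-fold in the fit (2.47 ± 0.13, edgeR adjusted p = 5.57e-09).

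Genes that mature beta cells keep low were higher in NZO. Of 25 such disallowed genes, 21 were higher and 0 lower (median 1.21), and without the 4 libraries 18 were higher (median 1.06). Rest, a repressor of neuronal and endocrine genes, ran from 3.62 to 18.9 CPM in the NZO libraries, with a median of 5.3, and from 2.08 to 2.82, with a median of 2.16, in the CAST libraries. Rest did not overlap between the strains and was 3.4-fold higher in NZO (1.76 ± 0.15, edgeR adjusted p = 2.85e-07). Oat, ornithine aminotransferase, had a median of 36.4 CPM in NZO (lowest 32.3, highest 80) and of 22.2 CPM in CAST (lowest 18.6, highest 26). Oat lay above the CAST range in all NZO libraries, by 2.15-fold in the fit (1.10 ± 0.10, edgeR adjusted p = 7.27e-07). Disallowed genes are by definition expressed in other tissues, and genes of stromal and immune cells, given below, were also higher in NZO. Their part in this result was not tested. Of 14 genes reported in dedifferentiated beta cells, 9 were higher and 1 lower (median 1.28). Aldh1a3, an aldehyde dehydrogenase that marks failing beta cells, was measured at 76.1 to 240 CPM in NZO islets (median 144) against 10.7 to 24.1 CPM in CAST islets (median 15.5). Aldh1a3 in NZO was 9.29-fold above CAST, without overlap (3.22 ± 0.21, edgeR adjusted p = 4.39e-08). Cck, cholecystokinin, a peptide that islets make in obesity, ran from 2.06 to 94.6 CPM in the NZO libraries, with a median of 19.5, and from 0.0766 to 0.501, with a median of 0.28, in the CAST libraries. Cck was higher in every NZO library than in any CAST library, 125-fold in the fit (6.96 ± 0.48, edgeR adjusted p = 6.68e-08). Ldhb, a subunit of lactate dehydrogenase, had a median of 6.26 CPM in NZO (lowest 4.1, highest 6.69) and of 19.5 CPM in CAST (lowest 12.8, highest 24.2). Ldhb in NZO was 3.19-fold below CAST, without overlap (-1.67 ± 0.11, edgeR adjusted p = 3e-08). The first 2 were above CAST in all 7 NZO libraries, and Ldhb was below.

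Cell division genes were higher in NZO almost as a block. Of 32 cell cycle genes, 31 were higher and 0 lower (median 1.21), and 25 lay above CAST in every library. Leaving out the 4 libraries gave 26 higher and 0 lower (median 1.11). Macrophage and stromal cells can also divide, and all 20 macrophage and all 18 stellate and fibroblast genes, given below, were higher too, with positive diet interactions at 19 and 15 of them. The part of these cells in the cell cycle result was not tested. Mki67, the proliferation antigen Ki-67, was measured at 30.2 to 60.7 CPM in NZO islets (median 33.8) against 12.6 to 19.5 CPM in CAST islets (median 15.4). Mki67 did not overlap between the strains and was 2.47-fold higher in NZO (1.30 ± 0.17, edgeR adjusted p = 1.69e-05). Rrm2, a subunit of ribonucleotide reductase, ran from 10.5 to 17.4 CPM in the NZO libraries, with a median of 11.6, and from 3.84 to 4.67, with a median of 4.15, in the CAST libraries. Rrm2 lay above the CAST range in all NZO libraries, by 3.06-fold in the fit (1.61 ± 0.11, edgeR adjusted p = 4.22e-08). Mcm5, a subunit of the replicative helicase, had a median of 13 CPM in NZO (lowest 9.6, highest 18.9) and of 5.22 CPM in CAST (lowest 4.46, highest 7.31). Mcm5 in NZO was 2.47-fold above CAST, without overlap (1.31 ± 0.13, edgeR adjusted p = 1.31e-06). Mcm6, another subunit of that helicase, was measured at 15.8 to 34.2 CPM in NZO islets (median 20.6) against 7.54 to 10.3 CPM in CAST islets (median 9.16). Mcm6 was higher in every NZO library than in any CAST library, 2.5-fold in the fit (1.32 ± 0.10, edgeR adjusted p = 1.33e-07). On the control diet 3 of 32 members were higher and 3 lower (median -0.24), and Mki67 there differed by -0.26 (edgeR adjusted p = 0.333). The strain by diet interaction of Mki67 was 1.56 ± 0.28 (adjusted p = 0.000884), and 1.43 (adjusted p = 0.0209) without the 4 libraries.

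Chaperones of the endoplasmic reticulum were higher in NZO. Of 25 unfolded protein response genes, 21 were higher and 1 lower (median 0.85; 1.09 in females and 0.38 in males). Leaving out the 4 libraries gave 15 higher and 1 lower. Hspa5, the chaperone BiP, ran from 2331 to 6265 CPM in the NZO libraries, with a median of 3027, and from 1221 to 2004, with a median of 1552, in the CAST libraries. Hspa5 did not overlap between the strains and was 2.13-fold higher in NZO (1.09 ± 0.18, edgeR adjusted p = 0.000118). Dnajc3, its co-chaperone p58IPK, had a median of 759 CPM in NZO (lowest 541, highest 1324) and of 343 CPM in CAST (lowest 311, highest 485). Dnajc3 lay above the CAST range in all NZO libraries, by 2.28-fold in the fit (1.19 ± 0.13, edgeR adjusted p = 3.97e-06). Manf, a factor secreted under endoplasmic reticulum stress, was measured at 364 to 881 CPM in NZO islets (median 514) against 206 to 341 CPM in CAST islets (median 236). Manf in NZO was 2.12-fold above CAST, without overlap (1.08 ± 0.14, edgeR adjusted p = 1.18e-05). Hspa5 averaged 4101 ± 1466 CPM in NZO females (SD, n = 4), 2598 ± 352 in NZO males (n = 3), 1428 ± 172 in CAST females (n = 4) and 1665 ± 323 in CAST males (n = 4). Acinar cells also express this machinery at high levels, and acinar transcripts, given below, were higher in NZO. With the acinar score in the fit, 18 genes were higher and 1 lower (median 0.64), and Hspa5 differed by 0.98 (adjusted p = 0.00207). Of 21 genes of the integrated stress response, 15 were higher and 1 lower (median 0.73, or 0.38 with the acinar score). Slc7a11, the cystine transporter, ran from 3.05 to 15.8 CPM in the NZO libraries, with a median of 4.22, and from 0.154 to 1.44, with a median of 0.576, in the CAST libraries. Slc7a11 was higher in every NZO library than in any CAST library, 8.86-fold in the fit (3.15 ± 0.40, edgeR adjusted p = 1.19e-05). Gdf15, a stress-induced secreted factor, had a median of 1.26 CPM in NZO (lowest 0.634, highest 4) and of 0.203 CPM in CAST (lowest 0.0929, highest 0.473). Gdf15 did not overlap between the strains and was 6.99-fold higher in NZO (2.81 ± 0.35, edgeR adjusted p = 1.22e-05). On the control diet 11 of the 25 unfolded protein response genes were higher and 0 lower (median 0.58). Of the 21 integrated stress response genes, 14 were higher there and 0 lower (median 0.69). The strain by diet interaction was called at 0 of 25 and at 1 of 21, which was negative, against 23.0% of all genes.

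Genes induced by interferons and genes of antigen presentation showed large differences. Interferons act through receptors that activate STAT and IRF factors, which bind short repeats of GAAA in promoters. The 3 upstream sequences are printed because these genes belong to the interferon and antigen presentation lists and hold such a repeat. They come from RefSeq promoters of build GRCm38.p6, which is C57BL/6J and so neither strain compared, and cover the 250 bases before the annotated start, 5′ to 3′ along the gene. Capitals mark matches of the motif searched, GAAA followed after any 2 bases by GAAA (TTTC, any 2 bases and TTTC on the other strand), with overlapping matches joined. The motif, the lists searched, Isg15 and B2m were chosen after values were seen.
Oas1a (chr5:120907526-120907775, minus strand): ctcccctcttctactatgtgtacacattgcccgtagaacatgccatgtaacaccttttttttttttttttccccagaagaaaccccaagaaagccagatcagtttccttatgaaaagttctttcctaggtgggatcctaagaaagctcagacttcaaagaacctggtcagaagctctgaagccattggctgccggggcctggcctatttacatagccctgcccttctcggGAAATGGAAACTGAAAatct
Isg15 (chr4:156200819-156201068, minus strand): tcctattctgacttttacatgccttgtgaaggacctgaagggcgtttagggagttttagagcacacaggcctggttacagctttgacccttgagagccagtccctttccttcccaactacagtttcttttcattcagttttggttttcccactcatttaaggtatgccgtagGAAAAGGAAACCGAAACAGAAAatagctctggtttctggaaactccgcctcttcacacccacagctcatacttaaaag
B2m (chr2:122147437-122147686, plus strand): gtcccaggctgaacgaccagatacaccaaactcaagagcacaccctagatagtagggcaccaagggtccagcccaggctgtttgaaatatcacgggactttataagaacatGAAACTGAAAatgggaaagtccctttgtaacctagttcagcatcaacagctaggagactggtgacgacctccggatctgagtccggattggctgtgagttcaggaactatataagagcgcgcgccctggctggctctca
Of 24 interferon list genes with a promoter in the table, 14 (58.3%) held the motif on either strand, against 415 of 12668 tested genes with a promoter (3.28%). Of 18 antigen presentation genes, 3 held it (16.7%), as did 1 of 26 cell cycle genes (3.8%) and 1 of 24 beta cell genes (4.2%). A match is a description of these letters and not of a bound site.

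Of 33 interferon response genes tested, 30 were higher in NZO and 1 lower (median 2.50; 1.85 in females, 3.43 in males), and the strains did not overlap at 22 genes higher and 1 lower in NZO. Leaving out the 4 libraries gave 29 higher and 1 lower (median 2.84). Oas1a, an RNA sensor whose transcripts share most of their sequence with related genes, so that its counts are uncertain, was measured at 3.35 to 30 CPM in NZO islets (median 8.46) against 0.107 to 0.72 CPM in CAST islets (median 0.352). Oas1a lay above the CAST range in all NZO libraries, by 30.6-fold in the fit (4.93 ± 0.28, edgeR adjusted p = 1.26e-08). Ifih1, the RNA sensor MDA5, ran from 19.1 to 47.8 CPM in the NZO libraries, with a median of 37.5, and from 3.61 to 8.52, with a median of 4.93, in the CAST libraries. Ifih1 in NZO was 6.82-fold above CAST, without overlap (2.77 ± 0.14, edgeR adjusted p = 6.14e-09). Ifi27, an interferon-induced mitochondrial protein, had a median of 53.2 CPM in NZO (lowest 40.6, highest 85.1) and of 13.6 CPM in CAST (lowest 12.3, highest 18). Ifi27 was higher in every NZO library than in any CAST library, 4.36-fold in the fit (2.12 ± 0.09, edgeR adjusted p = 1.26e-09). The secreted modifier Isg15 differed by 4.25 ± 0.30 (edgeR adjusted p = 7.72e-08), with 1.12 to 11.3 CPM (median 3.44) in NZO and 0.121 to 0.368 CPM (median 0.255) in CAST. Summed counts of the list made up 0.0938% of counts in NZO female 1 and 0.0292% to 0.0494% in the other NZO females. They made up 0.119% to 0.142% in NZO males and 0.0161% to 0.0275% in CAST. Macrophage and lymphocyte genes, given below, were also higher in NZO, and the part of these cells in this result was not tested. On the control diet the strains differed in the same direction, with 29 genes higher and 3 lower (median 1.25).

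All 23 antigen presentation genes were higher in NZO (median 2.32), and 19 were without the 4 libraries. Summed counts of this list made up 0.0727% of counts in NZO female 2, within the CAST range of 0.0336% to 0.078%. They made up 0.0874% to 0.552% in the other NZO libraries. The part of immune cells in this result was not tested either. H2-D1, a classical MHC class I heavy chain, was measured at 166 to 807 CPM in NZO islets (median 379) against 27.2 to 49.2 CPM in CAST islets (median 33.5). H2-D1 did not overlap between the strains and was 11-fold higher in NZO (3.45 ± 0.20, edgeR adjusted p = 1.21e-08). H2-M3, a non-classical class I chain, ran from 13.3 to 21.1 CPM in the NZO libraries, with a median of 16.8, and from 6.42 to 8.04, with a median of 7.34, in the CAST libraries. H2-M3 lay above the CAST range in all NZO libraries, by 2.43-fold in the fit (1.28 ± 0.07, edgeR adjusted p = 1.14e-08). B2m, the light chain of class I, measured 100 to 965 CPM (median 462) in NZO and 48.9 to 84.3 CPM (median 54.1) in CAST and differed by 2.71 ± 0.31 (edgeR adjusted p = 4.81e-06). H2-T22, a class I chain that shares most of its sequence with related genes and is uncertain, had a median of 64.3 CPM in NZO (lowest 41.8, highest 113) and of 4.39 CPM in CAST (lowest 2.77, highest 6.07). H2-T22 in NZO was 14.9-fold above CAST, without overlap (3.90 ± 0.15, edgeR adjusted p = 5.96e-10). Among cytokines and chemokines, 13 of 21 were higher and 1 lower (median 1.30), and 9 and 0 without the 4 libraries. Cxcl10, a chemokine that draws T cells, was measured at 0.543 to 17.6 CPM in NZO islets (median 9.09) against 0.144 to 0.413 CPM in CAST islets (median 0.257). Cxcl10 was higher in every NZO library than in any CAST library, 30.6-fold in the fit (4.93 ± 0.55, edgeR adjusted p = 4.14e-06). Cxcl9, a related chemokine, measured 0.176 to 68 CPM (median 20.1) in NZO and 0 to 0.272 CPM (median 0.0104) in CAST (edgeR adjusted p = 4.25e-06), with overlap.

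**Figure D3:**
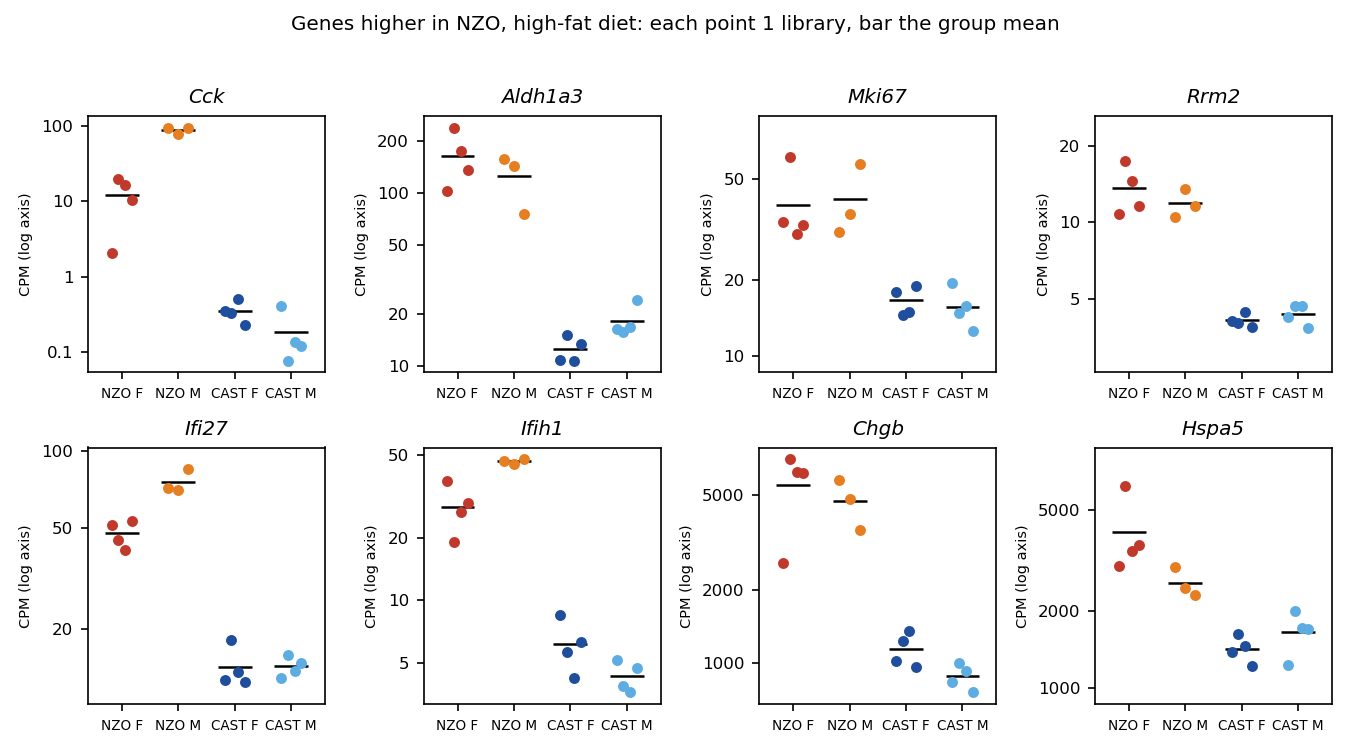
Level of 8 genes higher in NZO, in CPM (log axis), in the 15 high-fat libraries. Each point is 1 library and the bar is the group mean: no NZO library overlaps a CAST library for any of the 8, and the 3 NZO males lie above the 4 NZO females for Cck, Ifi27 and Ifih1.

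Markers of immune cells were higher in NZO. All 20 macrophage genes were higher (median 2.27; 1.11 in females, 3.49 in males), as were all 20 without the 4 libraries. Their summed counts made up 0.0193% to 0.123% of counts in NZO (median 0.0335%) and 0.00756% to 0.0197% in CAST (median 0.0136%). Adgre1, the macrophage antigen F4/80, ran from 5.2 to 50.6 CPM in the NZO libraries, with a median of 10.8, and from 1.06 to 2.64, with a median of 1.77, in the CAST libraries. Adgre1 did not overlap between the strains and was 9.38-fold higher in NZO (3.23 ± 0.21, edgeR adjusted p = 3.38e-08). Ctss, cathepsin S, a protease of antigen-presenting cells, had a median of 62.7 CPM in NZO (lowest 30.8, highest 212) and of 15.4 CPM in CAST (lowest 9.59, highest 23.2). Ctss lay above the CAST range in all NZO libraries, by 5.42-fold in the fit (2.44 ± 0.19, edgeR adjusted p = 1.57e-07). Adgre1 averaged 7.87 ± 2.37 CPM in NZO females (SD, n = 4), 34.4 ± 14.2 in NZO males (n = 3), 2.13 ± 0.366 in CAST females (n = 4) and 1.44 ± 0.278 in CAST males (n = 4). On the control diet 8 macrophage genes were higher and 1 lower (median 0.28). Of 17 lymphocyte genes, 16 were higher (median 3.82), but 4 were without the 4 libraries, and their summed share was 0.00116% to 0.0329% of counts in NZO (median 0.00692%) and 0.000574% to 0.01% in CAST (median 0.00108%). Cd52, a surface glycoprotein of leukocytes, was measured at 1.65 to 22.4 CPM in NZO islets (median 7.35) against 0.598 to 3.42 CPM in CAST islets (median 0.871). Cd52 overlapped between the strains, with a fitted level 6.32-fold higher in NZO (2.66 ± 0.37, edgeR adjusted p = 2.99e-05).

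Stromal and exocrine markers were higher as well. All 18 stellate and fibroblast genes were higher (median 1.68; 16 without the 4 libraries), with a summed share of 0.142% to 0.535% of counts in NZO (median 0.235%) and 0.0549% to 0.113% in CAST (median 0.0887%). Rgs5, a signalling regulator of pericytes, ran from 428 to 770 CPM in the NZO libraries, with a median of 653, and from 60.7 to 84.6, with a median of 68.6, in the CAST libraries. Rgs5 in NZO was 9.25-fold above CAST, without overlap (3.21 ± 0.12, edgeR adjusted p = 3.61e-10). Postn, periostin, a matrix protein, had a median of 69.3 CPM in NZO (lowest 33.6, highest 106) and of 7.43 CPM in CAST (lowest 5.16, highest 10.4). Postn was higher in every NZO library than in any CAST library, 9.31-fold in the fit (3.22 ± 0.17, edgeR adjusted p = 5.86e-09). Endothelial genes were higher at 12 of 14 and lower at 1 (median 0.71). Cdh5, the cadherin of endothelial junctions, was measured at 63.4 to 133 CPM in NZO islets (median 81.2) against 31.7 to 40.8 CPM in CAST islets (median 37.2). Cdh5 did not overlap between the strains and was 2.33-fold higher in NZO (1.22 ± 0.10, edgeR adjusted p = 2.57e-07). Of 14 duct genes 12 were higher (median 1.54). Krt18, a keratin of ductal epithelium, ran from 133 to 261 CPM in the NZO libraries, with a median of 206, and from 36.9 to 64.9, with a median of 59.9, in the CAST libraries. Krt18 lay above the CAST range in all NZO libraries, by 3.74-fold in the fit (1.90 ± 0.14, edgeR adjusted p = 8.86e-08). The 31 acinar genes varied widely between libraries of each strain, at 4.07% to 21.4% of counts in NZO (median 10.2%) and 0.133% to 21.5% in CAST (median 2.46%), with 16 higher and 1 lower (median 1.95). Leaving out the 4 libraries left 4 acinar genes called, with a median over the list of 3.09. With the acinar score in the fit, which is made from these genes, 11 were higher and 13 lower. Bhlha15, Mist1, the factor that shapes acinar cells, had a median of 130 CPM in NZO (lowest 116, highest 200) and of 29.8 CPM in CAST (lowest 20.6, highest 108). Bhlha15 in NZO was 3.14-fold above CAST, without overlap (1.65 ± 0.33, edgeR adjusted p = 0.000537). Bhlha15 differed by 0.96 with the score. Adjusted for it, the stromal genes had a median of 1.79 and the macrophage genes of 2.44.

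**Figure D4:**
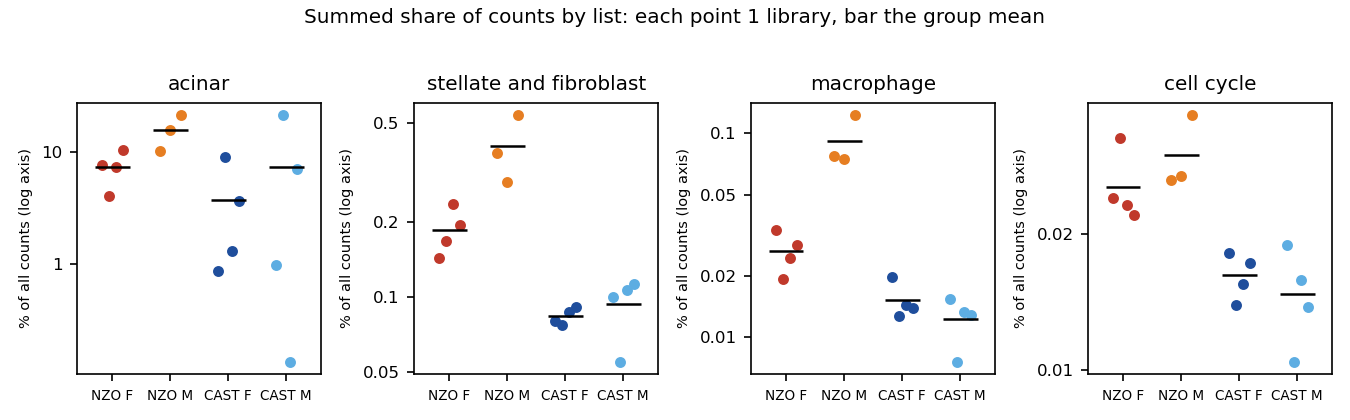
Summed counts of 4 gene lists as a percentage of all counts (log axis) in the 15 high-fat libraries, each point 1 library and the bar the group mean. Acinar shares overlap between strains (0.133% to 21.5% in CAST), while stellate and fibroblast and cell cycle shares do not overlap.

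Smaller cell type lists were mixed: 2 of 9 Schwann cell genes were higher and 3 lower, 2 of 4 adipocyte genes were higher, and 1 of 6 erythrocyte genes was higher and 1 lower. The adhesion molecule Ncam1, which beta cells also express, was lower (-2.30 ± 0.09, edgeR adjusted p = 7.42e-10). Reg family genes, induced in injured exocrine and endocrine pancreas, were higher at 2 of 6 and lower at 1. Reg3g, an antibacterial lectin, measured 6.66 to 79.9 CPM (median 27.2) in NZO and 0 to 1.89 CPM (median 0.0945) in CAST without overlap (edgeR adjusted p = 6.16e-07). Immediate early genes, which respond to handling, were called at 3 of 14 (median 0.10), and none of the 3 sex-linked genes was called.

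Metabolic genes changed in both directions. Of 23 glycolytic and pentose phosphate genes, 10 were higher and 7 lower (median 0.02). Eno2, the neuronal and endocrine enolase, was measured at 27.1 to 49.6 CPM in NZO islets (median 47.9) against 130 to 155 CPM in CAST islets (median 134). Eno2 did not overlap between the strains and was 3.45-fold lower in NZO (-1.79 ± 0.08, edgeR adjusted p = 1.32e-09). Genes that high glucose induces in beta cells were higher at 8 of 12 and lower at 1 (median 1.28). Txnip, a glucose-induced inhibitor of thioredoxin, ran from 225 to 1464 CPM in the NZO libraries, with a median of 948, and from 177 to 311, with a median of 259, in the CAST libraries. Txnip overlapped between the strains, with a fitted level 3.55-fold higher in NZO (1.83 ± 0.21, edgeR adjusted p = 6.37e-06). Pfkfb3, an activator of glycolysis, had a median of 14.9 CPM in NZO (lowest 8.62, highest 63.7) and of 3.49 CPM in CAST (lowest 2.59, highest 4.51). Pfkfb3 was higher in every NZO library than in any CAST library, 6.63-fold in the fit (2.73 ± 0.15, edgeR adjusted p = 9.95e-09). Mlxipl, ChREBP, the glucose-responsive factor that drives many of them, was measured at 47.5 to 145 CPM in NZO islets (median 96) against 142 to 239 CPM in CAST islets (median 191). Mlxipl overlapped between the strains, with a fitted level 2.32-fold lower in NZO (-1.22 ± 0.11, edgeR adjusted p = 8.76e-07). Nuclear genes of mitochondrial metabolism were higher at 19 of 32 and lower at 5 (median 0.23). Atp5o, a subunit of ATP synthase, ran from 73.5 to 96.9 CPM in the NZO libraries, with a median of 82.3, and from 41.2 to 56.6, with a median of 44.1, in the CAST libraries. Atp5o did not overlap between the strains and was 1.84-fold higher in NZO (0.88 ± 0.07, edgeR adjusted p = 2.26e-07). Cox6a2, a muscle-type subunit of cytochrome oxidase, had a median of 9.73 CPM in NZO (lowest 3.12, highest 17.4) and of 40.6 CPM in CAST (lowest 31.6, highest 48). Cox6a2 was lower in every NZO library than in any CAST library, 5.74-fold in the fit (-2.52 ± 0.14, edgeR adjusted p = 9e-09). Transcripts of the mitochondrial genome were lower at 11 of 13 and higher at 1 (median -0.81). mt-Nd2, a subunit of complex I, was measured at 365 to 555 CPM in NZO islets (median 434) against 1403 to 2419 CPM in CAST islets (median 1851). mt-Nd2 separated the strains in all libraries and was 4.42-fold lower in NZO (-2.14 ± 0.11, edgeR adjusted p = 7e-09). The exception was mt-Co2, which shares most of its sequence with other loci and is uncertain.

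Lipid lists showed no common direction. Fatty acid oxidation genes were higher at 11 of 23 and lower at 2 (median 0.33), synthesis genes at 8 and 6 of 19 (0.14), and cholesterol synthesis genes at 7 and 7 of 24 (0.08). Ehhadh, an enzyme of peroxisomal oxidation, ran from 11.4 to 23.2 CPM in the NZO libraries, with a median of 21.5, and from 4.67 to 7.32, with a median of 6.44, in the CAST libraries. Ehhadh lay above the CAST range in all NZO libraries, by 2.92-fold in the fit (1.55 ± 0.11, edgeR adjusted p = 9.38e-08). Scd2, a fatty acid desaturase, had a median of 174 CPM in NZO (lowest 161, highest 250) and of 510 CPM in CAST (lowest 414, highest 616). Scd2 in NZO was 2.68-fold below CAST, without overlap (-1.42 ± 0.11, edgeR adjusted p = 1.28e-07). Antioxidant genes were higher at 7 of 19 and lower at 5 (median 0.11). Prdx1, a peroxidase that removes hydrogen peroxide, was measured at 147 to 184 CPM in NZO islets (median 169) against 79.3 to 91 CPM in CAST islets (median 85.4). Prdx1 in NZO was 2-fold above CAST, without overlap (1.00 ± 0.06, edgeR adjusted p = 1.09e-08).

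Among the 12 protein-coding genes of largest fold in NZO, limited to those whose average log2 CPM reached 1, were genes with next to no counts in CAST. The first was Gm5771, a trypsinogen-like gene of uncertain counts, at 51.2 to 8610 CPM (median 1327) in NZO and 0 to 0.138 CPM (median 0) in CAST. Slc22a29, of the organic anion transporter family (chr19:8160165-8218900 in GRCm38) measured 4.76 to 8.2 CPM (median 5.62) in NZO and 0 to 0.0197 CPM (median 0) in CAST (edgeR adjusted p = 1.27e-08). Iigp1, an interferon-inducible GTPase, measured 6.08 to 192 CPM (median 148) in NZO and 0 to 0.174 CPM (median 0) in CAST (adjusted p = 4.1e-06). Klk1b4, a kallikrein, measured 2.15 to 9.3 CPM (median 2.72) in NZO and 0 to 0.0613 CPM (median 0) in CAST (adjusted p = 2.33e-08). In each of these genes all 7 NZO libraries lay above all 8 CAST libraries, and the CAST counts of Iigp1 came from females 1, 2 and 4. No count was seen in any CAST high-fat library at 36 genes that every NZO library expressed, 17 of them protein-coding, and the reverse held at 41 genes, 14 protein-coding. How the counting assigned reads that differ from the reference genome is not known, and its part in counts of 0 and in the largest folds, those of H2 genes, Slc22a29 and Mndal among them, was not tested. Csn3, kappa casein, was one of the former, at 0.466 to 19 CPM in NZO. Its mean over the NZO libraries was at least 195-fold above a floor of 3 counts per CAST library, a bound that does not hold for each NZO library. Csn3 stood at 0 also in the CAST females with transcripts of another strain.

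Other genes were all but silent in NZO. Npy, neuropeptide Y, an inhibitor of insulin secretion, ran from 0.56 to 4.36 CPM in the NZO libraries, with a median of 1.8, and from 144 to 275, with a median of 209, in the CAST libraries. Npy did not overlap between the strains and was 104-fold lower in NZO (-6.70 ± 0.28, edgeR adjusted p = 1.08e-09). Prkg2, a cGMP-dependent protein kinase, had a median of 0.285 CPM in NZO (lowest 0.181, highest 1.89) and of 68.8 CPM in CAST (lowest 57.7, highest 80.5). Prkg2 was lower in every NZO library than in any CAST library, 136-fold in the fit (-7.09 ± 0.31, edgeR adjusted p = 1.52e-09). H2-Q2, an MHC class I gene, was measured at 0.0253 to 0.97 CPM in NZO islets (median 0.0926) against 41 to 54.5 CPM in CAST islets (median 46.2). H2-Q2 separated the strains in all libraries and was 256-fold lower in NZO (-8.00 ± 0.38, edgeR adjusted p = 2.95e-09). For these 3 genes the highest NZO value was that of NZO male 3, and without it Prkg2 differed by -7.64 and H2-Q2 by -8.87. Npy lies at chr6:49822710-49829507 and Prkg2 at chr5:98929773-99037351 in GRCm38. Lrrc38, an auxiliary subunit of potassium channels, ran from 0.0114 to 0.232 CPM in the NZO libraries, with a median of 0.0986, and from 7.15 to 14.7, with a median of 11.7, in the CAST libraries. Lrrc38 in NZO was 101-fold below CAST, without overlap (-6.65 ± 0.27, edgeR adjusted p = 7.75e-10). B3gat1, the enzyme that makes the CD57 carbohydrate, had a median of 0.0682 CPM in NZO (lowest 0.0253, highest 0.233) and of 8.27 CPM in CAST (lowest 7.22, highest 12.6). B3gat1 did not overlap between the strains and was 96.8-fold lower in NZO (-6.60 ± 0.38, edgeR adjusted p = 1.35e-08). Mndal, an interferon-inducible gene on chromosome 1, measured 0 to 0.178 CPM (median 0) in NZO and 3.06 to 4.96 CPM (median 3.67) in CAST without overlap (edgeR adjusted p = 4.12e-07). Cela3a, a pancreatic elastase, was measured at 0.0801 to 3.13 CPM in NZO islets (median 0.833) against 5 to 1203 CPM in CAST islets (median 109). Cela3a was lower in every NZO library than in any CAST library, 123-fold in the fit (-6.94 ± 1.27, edgeR adjusted p = 0.000288). Cela3a differed by -6.13 without CAST male 2, by -7.68 without NZO female 1 and by -9.23 with the acinar score.

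How much of this exists without the high-fat diet was asked of the 14 control libraries, fitted separately. There 9201 of 18876 genes (48.7%) were called, with a median size of 0.399 against 0.615 on the high-fat diet. Of 18574 genes tested on both diets, 7806 were called on both in the same direction, 58.5% of the 13345 high-fat calls and 85.8% of the 9100 control calls, and 120 in opposite directions. On the control diet 24.9% of genes were higher and 23.8% lower in NZO. Beta cell genes on the control diet were lower at 18 and higher at 5 of 32 (median -0.32). Slc2a2 differed there by -1.24 (edgeR adjusted p = 3.77e-05), Gipr by -1.31 (adjusted p = 7.47e-05) and Npy by -6.91 (adjusted p = 6.75e-08). Aldh1a3 differed by 2.52 on the control diet (adjusted p = 1.36e-06) and Glp1r, in NZO, was higher there by 0.72 (adjusted p = 0.00135).

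**Figure D5:**
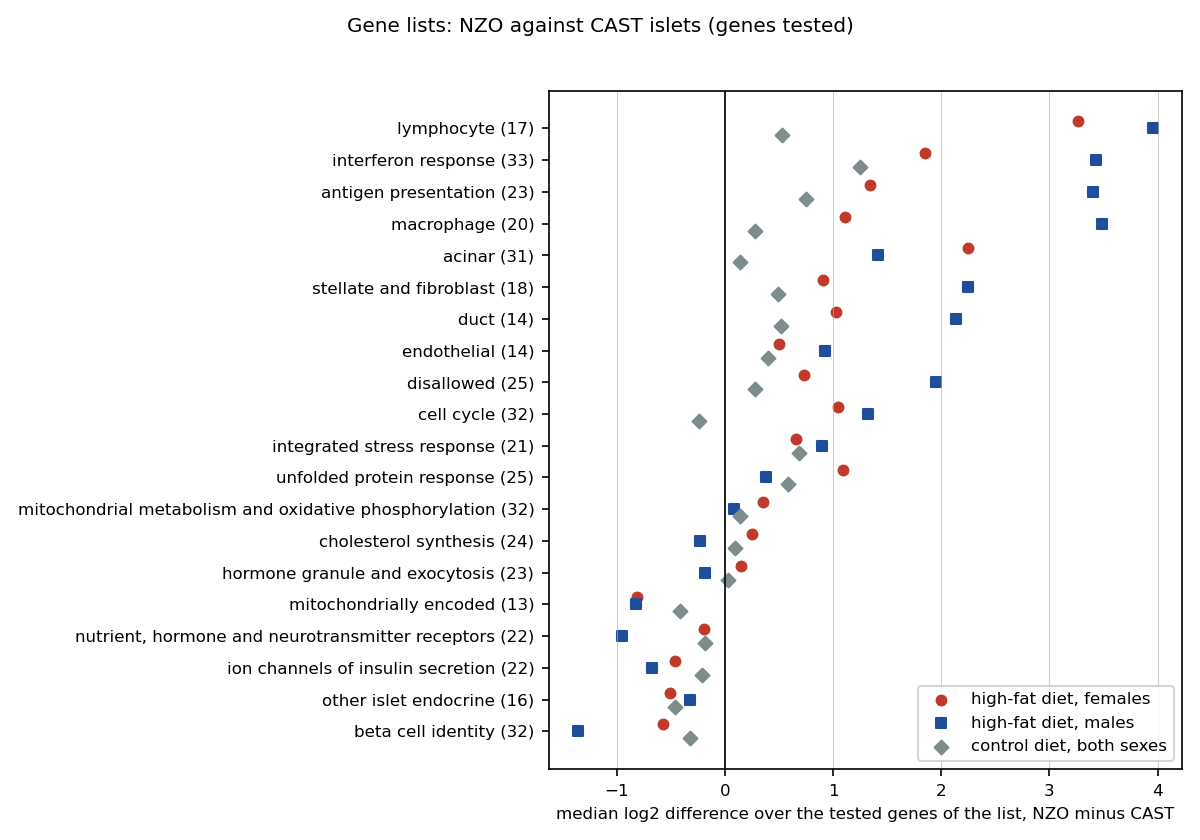
Median log2 difference, NZO minus CAST, over the tested genes of 20 lists (number of genes in parentheses) in high-fat females, high-fat males and, from a separate fit, control-diet libraries of both sexes. The beta cell identity list stands at -0.57 in females and -1.36 in males, and the cell cycle list is above 0 in both sexes on the high-fat diet and at -0.24 on the control diet.

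The change of the strain difference with diet was tested as an interaction over all 29 libraries, with the identifier run as a term. Within each sex of NZO only the first run holds both diets, so diet within NZO is partly tied to the run. The interaction was called at 4539 of 19748 genes (23.0%). It was positive at 2256 (11.4%), where NZO rose relative to CAST on the high-fat diet, and negative at 2283 (11.6%). Without the 4 libraries 1322 of 20684 genes (6.39%) were called, 413 (2.0%) positive and 909 (4.39%) negative. The cell cycle list was positive at 31 of 32 genes (16 without the 4 libraries), macrophage genes at 19 of 20 (16), interferon genes at 25 of 33 (8) and disallowed genes at 22 of 25 (1). The median interaction went from 1.36 to 1.22 for the cell cycle list and from 1.91 to 1.78 for macrophage genes. It went from 1.29 to 1.21 for interferon genes and from 1.11 to 0.84 for disallowed genes. How much of the loss of calls is fewer samples was not tested. Beta cell genes were negative at 17 of 32 (14) and positive at 0, with a median of -0.58 (-0.64). The interaction was -1.28 for Ucn3 (adjusted p = 0.00155), -0.95 for Nkx6-1 (adjusted p = 0.00351) and -1.12 for Slc2a2 (adjusted p = 0.00304). Those 3 calls remained without the 4 libraries, with adjusted p of 0.00981, 0.0152 and 0.0297. Txnip had 1.17 (adjusted p = 0.00758, or 0.0822 without the 4 libraries), and Cib3, a calcium-binding protein, had -3.25 (adjusted p = 0.000372, or 0.00807).

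Between sexes, the strain difference was called at 10249 genes (53.7%) in females and 11874 (62.2%) in males (3337, 16.7%, and 10160, 50.9%, without the 4 libraries), and at 7799 genes in both, 7689 of them in the same direction. Its median size was 0.561 in females and 0.687 in males. Only the first run of sample identifiers holds NZO high-fat libraries of both sexes, so sex within NZO is partly tied to the run. The strain by sex interaction was called at 2523 genes (13.2%), a number that single libraries moved. It was 478 without CAST male 3, 545 without CAST female 1, 684 without CAST male 2, 886 without CAST female 4 and 1377 without NZO female 2. Leaving out the 4 libraries left 1 gene called by edgeR (0.00501%), the clock gene Arntl, named after its value was seen (-2.47, adjusted p = 0.0391), while 2119 genes had an unadjusted p under 0.05. That fit holds 1 CAST female, assumed to vary like the other groups, and 2 NZO males, so its few calls say little about whether the interactions hold. The median interaction went from -0.84 to -0.64 for beta cell genes, from 2.45 to 2.07 for macrophage genes and from 1.41 to 1.45 for disallowed genes. The largest positive interactions, Fam213b, Tmem254b (uncertain), Rpl9-ps6 (uncertain) and Erdr1, had counts in CAST females 1, 2 and 4 and few or none in CAST female 3 and the CAST males. None of them was called without the 4 libraries. Rpl9-ps6 reached 23.8 CPM in CAST female 1, and its interaction went from 6.68 to -2.71 without the 4 libraries. Cib3 (-4.82) and Mc5r, a melanocortin receptor (-3.50), were the most negative, at -4.49 (edgeR adjusted p = 0.111) and -3.01 (adjusted p = 0.0538) without them.

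Against C57BL/6J on the same diet, 2203 of the 6073 genes with a called difference of at least 2-fold (36.3%) had a C57BL/6J mean nearer to NZO. This was so at 32.1% of the genes higher in NZO and 42.5% of those lower. The strain means include the 4 libraries with transcripts of another strain, whose part in this placement was not tested. Of 5 genes proposed at diabetes and obesity loci of NZO, 2 were higher and 3 lower. Lepr, the leptin receptor, ran from 9.86 to 36.9 CPM in the NZO libraries, with a median of 16.9, and from 6.04 to 10.9, with a median of 7.99, in the CAST libraries. Lepr overlapped between the strains, with a fitted level 2.46-fold higher in NZO (1.30 ± 0.14, edgeR adjusted p = 2.32e-06). Pctp, a phosphatidylcholine transfer protein, had a median of 5.41 CPM in NZO (lowest 3.77, highest 6.43) and of 9.09 CPM in CAST (lowest 8.19, highest 10.5). Pctp separated the strains in all libraries and was 1.72-fold lower in NZO (-0.78 ± 0.11, edgeR adjusted p = 3.91e-05). Zfp69, a zinc finger gene of an NZO diabetes locus, was measured at 0.929 to 1.49 CPM in NZO islets (median 1.2) against 1.12 to 2.22 CPM in CAST islets (median 1.52). Zfp69 overlapped between the strains, with a fitted level 1.34-fold lower in NZO (-0.42 ± 0.14, edgeR adjusted p = 0.0162). The Zfp69 call was lost without CAST female 1 (-0.36), with the acinar score and without the 4 libraries, where the difference was -0.32.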

How the data were processed

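Polyadenylated RNA of islets was sequenced, and the authors deposited 1 table of expected counts (estimated counts, 80.597% of them whole within 1e-06) for 22904 genes in 45 libraries. Build GRCm38 and DESeq2 are named in the submitters' processing notes. Not given in the sources used here are the aligner, the counter, the strand setting and how reads that differ from the C57BL/6J reference were handled. Counts were rounded. Genes were filtered with filterByExpr (minimum count 10), scaled by TMM and tested with the quasi-likelihood test of edgeR 4.0.16 in R 4.3.3, with strain by sex groups and 3 runs of consecutive sample identifiers as terms, over all genes, and Benjamini-Hochberg adjusted p under 0.05 was called. CPM values are TMM-scaled over all 45 libraries. The control diet was fitted separately and the diet interaction over 29 libraries. The fit was tested on simulated data. DESeq2 1.42.0, other scaling, filters, terms and left-out libraries were alternatives.

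The comparison, the 35 gene lists (634 distinct genes matched, 12 entries unmatched) and the naming rule were chosen with earlier results of these data known. The rule names the 12 highest and 12 lowest genes, interaction extremes (6 and 4 each way), 5 genes at 0 each way, the 3 called members of smallest p in each list and a fixed set of beta cell and stress genes, of which the text gives a selection. A few genes the rule picks are not reported here. Genes shown in plots were picked after values were seen. A gene is called uncertain where at least 50% of its 31-base words occur in other genes. Identical or duplicate libraries were not found: a chi-square test of counts gave at least 68.5 per degree of freedom for every replicate pair.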

Additional observations from a re-analysis of the deposited data

Results flagged for a closer look

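In each high-fat group of 4 libraries (NZO females, CAST females, CAST males), every named gene was searched for a library that stood apart. Its gap to the nearest neighbour, relative to the range of the group, had to be above the 95% critical value of Dixon's test. Chance passes that limit in about 1 in 20 groups of normally distributed values. CPM need not be so distributed, and any count passes where the other libraries are at 0. Of 439 groups of values, 40 (9.1%) passed, a share that can thus not be set against 1 in 20. The other libraries were at 0 for Gbp10, Slc22a29, 9930111J21Rik1, Gzmb and, in CAST females, Gm5771. In CAST female 1 the library stood apart for Gbp10 (0.0218 CPM), S100b (1.44 CPM), Gcgr (53.8 CPM) and Txnip (177 CPM). In CAST female 2 the library stood apart for Amy2a3 (39.5 CPM), 1810009J06Rik (1.98 CPM), Gm2663 (2.38 CPM), Amy2a4 (38.8 CPM), Cd34 (20.2 CPM), Pecam1 (52 CPM), Mcm6 (8.83 CPM), Reg3g (1.89 CPM), Reg3b (45.8 CPM) and Reg2 (1946 CPM). In CAST female 3 the library stood apart for Eno2 (155 CPM). In CAST female 4 the library stood apart for Gm5771 (0.0295 CPM) and Slc22a29 (0.0197 CPM). In CAST male 1 the library stood apart for Gbp10 (0.0118 CPM), 9930111J21Rik1 (0.166 CPM), Cd52 (3.42 CPM), Kcnk16 (19.7 CPM) and mt-Co2 (5.71 CPM). In CAST male 2 the library stood apart for Gm5771 (0.138 CPM), Gm2663 (2.51 CPM), Prss1 (375 CPM), Gm10334 (125 CPM), Prss3 (169 CPM), Nnat (172 CPM), Pparg (1.66 CPM), Atp5o (56.6 CPM), Reg3b (6.89 CPM) and Reg2 (2407 CPM). In CAST male 4 the library stood apart for Gzmb (0.0151 CPM) and Aldh1a3 (24.1 CPM). In NZO female 1 the library stood apart for Gm4841 (10.7 CPM), Mcoln3 (2.22 CPM) and Rgs5 (428 CPM). In NZO female 2 the library stood apart for Mki67 (60.7 CPM). In NZO female 4 the library stood apart for Gdf15 (2.12 CPM) and Egr2 (2.64 CPM). CAST female 2 and CAST male 2 had 10 of these values each, many of them acinar and Reg family genes. CAST female 2 is one of the 4 libraries with transcripts of another strain.

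The strain difference changed with diet at 4539 genes and with sex at 2523 genes, each tested as an interaction with edgeR. Among named genes the strain by diet interaction, on the log2 scale, was called for Gm5771 (8.94), Prss1 (7.60), Gm2663 (7.20), Gm10334 (6.42), Cxcl9 (5.77), Prss3 (5.06), 9930111J21Rik2 (-4.93), 9930111J21Rik1 (-4.69), 2210418O10Rik (-4.54), Cib3 (-3.25), Mcoln3 (-3.02), Rpl9-ps6 (-2.90), Pdx1 (-0.63), Nkx6-1 (-0.95), Ucn3 (-1.28), Slc2a2 (-1.12), G6pc2 (-0.73), Glp1r (-1.07), Gipr (-1.11), Txnip (1.17) and Mki67 (1.56). The strain by sex interaction, males minus females, was called for Fam213b (8.35), Tmem254b (8.04), Rpl9-ps6 (6.68), Erdr1 (5.38), Cib3 (-4.82), Mc5r (-3.50), Kcnf1 (-3.00), Otoa (-2.53), Mafa (-0.98), Nkx6-1 (-1.43), Ucn3 (-1.73), Slc2a2 (-1.58), G6pc2 (-1.43), Glp1r (-1.45) and Gipr (-1.35). None of these sex interactions was called without the 4 libraries, in a fit with 1 CAST female and 2 NZO males. There the values of Fam213b, Tmem254b, Rpl9-ps6 and Erdr1 were -0.29, 0.20, -2.71 and 1.43, while Kcnf1 had -3.93 and those of Nkx6-1, Ucn3, Slc2a2, Glp1r and Gipr were -1.03, -1.15, -1.23, -1.12 and -1.15. The diet interactions of Gm2663, Prss1, Gm10334, Cxcl9, Prss3, 9930111J21Rik1, 9930111J21Rik2, G6pc2, Txnip and Rpl9-ps6 were not called without them either. Single control libraries decided others: those of Cxcl9 (CAST female 2, CAST male 3), Gm5771 and Gm2663 (CAST male 3), and that of Pdx1 was lost without any of several libraries. The trypsinogen-like genes share sequence and have uncertain counts, and the acinar share ran from 0.133% to 21.5% of counts between libraries. Its part in these values was not tested.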

How the results depend on the processing

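Alternatives were DESeq2, its size factors, no filter on low counts, no term for identifier runs, an additive strain and sex model, a score of acinar genes as a covariate, a fit of all 29 NZO and CAST libraries, each identifier run alone, each library left out in turn and, chosen after seeing the data, the 4 libraries with transcripts of another strain left out. No paired analysis was possible because the labels give no replicate numbers. The 13617 calls of the high-fat strain difference became 12929 to 13563 with 1 library left out, 11284 with the acinar score, 4064 in the first run of identifiers alone, 9181 in the second and 4843 in the third. Fewer samples enter these fits, and the NZO libraries of the second run are all males and those of the last all females, so there the additive strain and sex fit compares mainly 1 sex. Without the 4 libraries 3337 genes were called in females, where 1 CAST female remains, 1 gene in the sex interaction and 1322 genes in the diet interaction. The sex interaction had 4105 calls with DESeq2 and 478 to 3084 with 1 library left out. Over 154 named genes and 4004 gene and setting pairs of the high-fat strain difference, 3869 kept direction and call, 113 lost the call, 2 gained it and 20 changed sign. For the interactions, single genes were followed only where the interaction was called (15 genes for sex, 21 for diet), a scope narrowed after values were seen, because uncalled values near 0 changed sign in many settings. Of these pairs, 60 of 315 lost the call and 2 changed sign for sex, and 26 of 735 and 1 for diet. The changes of sign were as follows, and their cause was not tested. Most concern genes that did not pass the test: G6pc2 was -0.017 without the identifier term, -0.92 in the second run alone and -0.10 to 0.20 with 1 library left out. Ins2 was 0.015 in the first run, 0.39 in the third, 0.047 without the 4 libraries and -0.22 to 0.063 with 1 library left out. In the first run Egr3 was -0.10 and Egr2 -0.59. In the third run Otoa was 0.16, Ins1 0.40, Ppy -0.38, Mafa 0.011 and Glp1r 0.54. Of these genes Egr3, Egr2, Otoa, Ppy and Mafa had passed the test in the fit of all 15 libraries. Without the 4 libraries the sex interaction was -2.71 for Rpl9-ps6 and -0.29 for Fam213b, and the diet interaction of Rpl9-ps6 was 1.29. Calls of the strain difference lost without the 4 libraries were those of Prss1, Kcnf1, Reg2, Ier3, Egr2, Iapp, Sst, Ppy and Zfp69. Near-silent genes rest on few counts, and leaving out the 4 libraries leaves 1 CAST female and 2 NZO males, so fewer calls there are partly fewer samples.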

Other observations

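Genes outside the lists also differed. Mcoln3, a lysosomal cation channel, ran from 0.11 to 2.22 CPM in the NZO libraries, with a median of 0.224, and from 5.66 to 10.7, with a median of 9.37, in the CAST libraries. Mcoln3 in NZO was 25.8-fold below CAST, without overlap (-4.69 ± 0.47, edgeR adjusted p = 1.42e-06). Mc5r, a melanocortin receptor, had a median of 0.644 CPM in NZO (lowest 0.0683, highest 1.1) and of 4.44 CPM in CAST (lowest 1.92, highest 7.41). Mc5r did not overlap between the strains and was 12.3-fold lower in NZO (-3.62 ± 0.25, edgeR adjusted p = 5.87e-08). Otoa, otoancorin, known from the inner ear, was measured at 0.423 to 4.04 CPM in NZO islets (median 1.91) against 2.53 to 4.07 CPM in CAST islets (median 3.25). Otoa overlapped between the strains, with a fitted level 2.35-fold lower in NZO (-1.23 ± 0.19, edgeR adjusted p = 5.84e-05). The share of called genes per autosome ran from 68.1% of 1393 on chromosome 5 to 75.4% of 586 on chromosome 19, around the 71.3% over all genes. Among 627 tested genes of the X chromosome, 73.0% were called.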
